A study of Mus musculus with 4 samples.

Results

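Of 2376 windows of 1 Mb on chromosomes 1 to 19 of the embryonic mouse forebrain, 553 (23.3%) held no region of trimethylated lysine 4 of histone H3 (H3K4me3), and these windows are described here. Windows were laid from position 1 of each chromosome and kept where the unamplified input had at least 2000 tags. An H3K4me3 region was a 1 kb bin with at least 20 ChIP tags and at least 4 times the scaled input (pseudocount 1), joined to others over a gap of at most 1 bin, and it belonged to the window that held its midpoint. The choice thus used the H3K4me3 ChIP, its input and the depth of the other input, while the ChIP for trimethylated lysine 36 (H3K36me3) had no part in it. Of the other kept windows, 419 held 1 H3K4me3 region, 798 held 2 to 4 and 606 held 5 or more. All positions are in the mouse build mm8.

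H3K4me3 is laid down by SET1 and MLL methyltransferases at active and poised promoters, above all those rich in CpG. H3K36me3 is laid down by SETD2, which travels with elongating RNA polymerase II, so the mark covers the bodies of transcribed genes. Megabase stretches without an active promoter include gene deserts and clusters of genes that are silent in the tissue at hand.

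The series profiled forebrain of CD1 embryos, an outbred mouse strain, at embryonic day 11.5 by chromatin immunoprecipitation and sequencing (ChIP-seq). Dissected forebrains were pooled, 36 pieces per ChIP library, so each library averages over many embryos and over all forebrain cell types. The 4 groups held 1 library each: an H3K4me3 ChIP and its input, both put through 8 cycles of whole-genome amplification (WGA), and an H3K36me3 ChIP and its input, both unamplified. The mark and the amplification therefore cannot be told apart, no spread between replicates could be measured, and every test on tags compared libraries, not conditions. In pooled tissue a mark carried by few cells and a weak mark carried by all cells cannot be told apart either. The lists used held 7606197 H3K4me3 ChIP tags, 2513019 WGA input tags, 10466543 H3K36me3 ChIP tags and 23110768 unamplified input tags. They give positions without gene names, and the tissue label was not tested against marker genes.

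In their best bin at 4 times the input, some members came close to the minimum of 20 tags, while most stayed well below it. None of the 553 members contained a bin that passed the rule, which follows from the choice except where a region crosses a window border. The highest H3K4me3 bin at 4 times input had a median of 10 tags per member (interquartile range 9 to 12), and in 81 members it had 15 to 19. Just inside the rule, single bins with 19 ChIP tags and 0 input tags lay on chromosome 1 (56916001 to 56917000), chromosome 3 (68583001 to 68584000) and chromosome 4 (68440001 to 68441000). Just outside it, windows with 1 region owed their place to bins with 20 ChIP tags against 1 input tag on chromosome 8 (95248001 to 95249000 and 118591001 to 118592000) and chromosome 9 (90067001 to 90068000). Among all 419 windows with 1 region the best bin had a median of 45 tags, and in 47 of them it had 20 to 24. A further 53 members held a bin of at least 20 tags that stayed under 4 times the input. With a minimum of 10 tags instead of 20, 149 of the 553 members would still have been members. With an exact binomial test in place of the rule, 552 would.

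Members occurred on every autosome and lay scattered as well as in blocks. Their share ranged from 13.4% of kept windows on chromosome 11 (16 of 119) to 30.2% on chromosome 1 (58 of 192), and it was 30.2% on chromosome 8 as well (38 of 126). Chromosomes 13 (17.2%) and 9 (18.2%) followed chromosome 11 at the low end. When the kept windows of each chromosome were cut into 10 stretches of equal number, members made up between 21.8% and 27.2% of stretches 1 to 8, 17.1% of stretch 9 and 15.0% of stretch 10, at the end of highest coordinate. Of the 553 members, 209 stood alone and 344 (62.2%) had a member beside them, in 129 runs. There were 75 runs of 2 windows, 36 of 3, 13 of 4 and 2 of 5, with single runs of 6, 7 and 11.

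**Figure D1:**
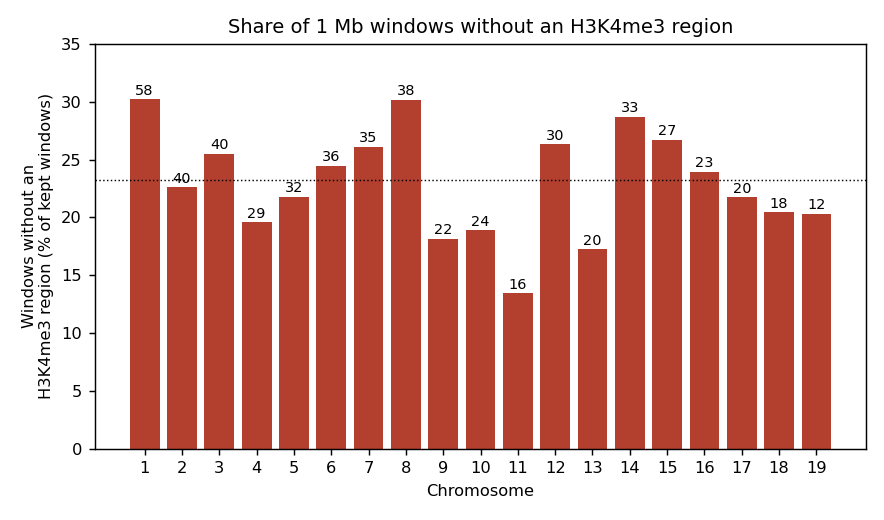
Bars give the windows of 1 Mb without an H3K4me3 region as a percentage of the kept windows of each chromosome, with the number of such windows above each bar. The dotted line is the share over all autosomes, 23.3%, and the bars run from 13.4% on chromosome 11 to 30.2% on chromosome 1.

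The members held very different shares of the 4 libraries. Although they made up 23.3% of the kept windows, they held 18.0% of H3K4me3 ChIP tags, 15.8% of WGA input tags, 12.2% of unamplified input tags and 3.44% of H3K36me3 ChIP tags. The H3K36me3 ChIP thus had by far the smallest share of its tags there. A median member had 2491 H3K4me3 ChIP tags (interquartile range 2284 to 2728), 652 WGA input tags (556 to 821), 382 H3K36me3 ChIP tags (295 to 645) and 3952 unamplified input tags (3464 to 5538). In windows with 5 or more regions the medians were 3655, 1338, 8821 and 13839. Members were therefore also the least deeply covered class, and with the floor of 2000 input tags the shallowest candidates had been left out.

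H3K36me3 was low in nearly all members. Levels are given as the ratio of ChIP tags to input tags scaled by library totals, so that 1 means the same share of both libraries. Single ratios have exact Clopper-Pearson 95% intervals, which cover counting error only. The median ratio was 0.203 in members (interquartile range 0.173 to 0.260), 0.436 in windows with 1 region (0.302 to 0.615), 0.806 in windows with 2 to 4 (0.605 to 1.04) and 1.44 in windows with 5 or more (1.11 to 1.87). Pooled over all their tags, members stood at 0.282 (0.281 to 0.283). The order of the classes was thus the order of their H3K4me3 region counts, and the interquartile range of members did not meet that of windows with 1 region. On each of the 19 autosomes the median of members, 0.174 to 0.273, lay below the median of the other windows, 0.721 to 1.10. Among the 2376 kept windows 31.8% had a ratio of at least 1, against 3 of the 553 members.

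**Figure D2:**
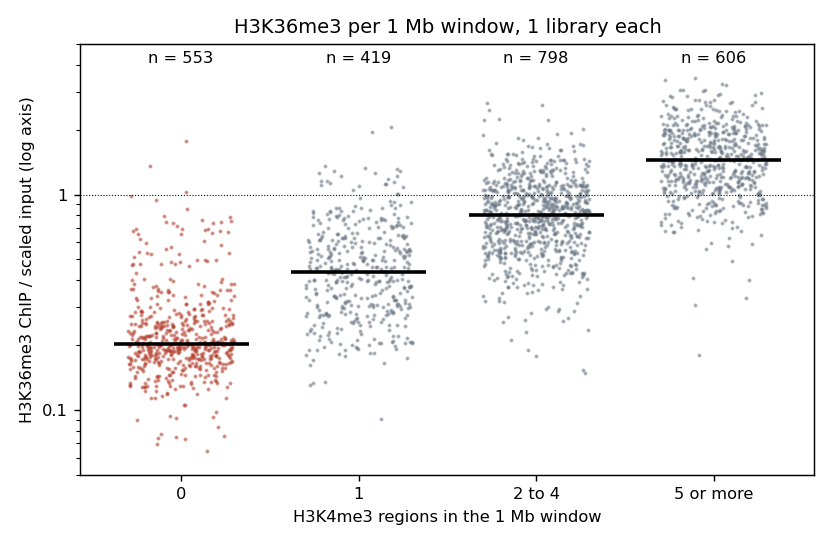
Each point is 1 window of 1 Mb, grouped by its number of H3K4me3 regions. The vertical log axis is the ratio of H3K36me3 ChIP tags to scaled input, and black lines are medians, which climb from 0.203 in windows without a region to 1.44 in windows with 5 or more.

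Called stretches of H3K36me3 were rare in members too. A bin of 5 kb with at least 10 ChIP and input tags together was called at a ratio of at least 1.5 and an adjusted p under 0.05 (one-sided exact binomial test, Benjamini-Hochberg over all bins). Of the tested bins of all kept windows 11.7% were called, against 801 of 96025 (0.834%) in members, 4.46% in windows with 1 region and 25.4% in windows with 5 or more. No bin was called in 446 members (80.7%), against 22.0% of all kept windows and 64 of the 419 windows with 1 region. The number of members without a called bin depended on the scale of the input. Scaled on background bins instead of library totals, 49 members (8.86%) had no called bin, against 2.15% of all kept windows, and the pooled ratio of members was 1.17. Called bins held 19.9% of the H3K36me3 tags of members and 82.1% of those of windows with 5 or more regions. In the bins that were not called, the pooled ratio was 0.230 (0.229 to 0.231) in members, 0.305 (0.304 to 0.306) in windows with 1 region and 0.378 (0.377 to 0.379) in windows with 5 or more. The classes therefore kept their order in the uncalled bins, over a narrower span.

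The low values were not confined to shallow windows. With 3000 to 4000 unamplified input tags, the median ratio was 0.196 in 255 members and 0.241 in 49 windows with 1 region. With 4000 to 6000 it was 0.205 in 152 members and 0.398 in 169 windows with 1 region. With 6000 to 10000 the values were 0.250 in 69 members and 0.504 in 114 windows, and with at least 10000 they were 0.342 in 46 members and 0.526 in 86. In each of these strata members had the lower median, and the medians of members were higher in the deeper strata. The share of called bins went the same way, from 0.166% in members with 3000 to 4000 input tags to 3.65% in those with at least 10000. Between the same strata it rose from 0.988% to 6.05% in windows with 1 region and from 7.65% to 13.8% with 2 to 4. With 5 or more regions it went from 29.6% to 26.6%. Among the 31 members with under 3000 input tags the share was 1.98%. There, 3 adjoining windows of chromosome 12 described further on held 27, 23 and 6 of the 72 called bins. Across the 553 members the ratio and the depth of the input correlated weakly (Spearman rho 0.296), and both share the input counts. The part of depth in this trend was not tested.

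H3K36me3 was lower at greater distance from the nearest H3K4me3 region, in members as in other windows. The tested bins of members lay a median of 823 kb from an H3K4me3 region, and at most 6116 kb, against 100 kb for bins of the other windows. Within 50 kb of a region, which lay in the window next door, 77 of 320 member bins were called (24.1%), against 32.0% of bins at that distance in other windows. From 50 to 100 kb the shares were 9.85% and 14.2%, and from 100 to 250 kb 3.66% and 5.33%. From 250 to 500 kb they were 1.32% and 1.51%, and from 500 to 1000 kb 0.446% and 0.542%. Beyond 1000 kb, where only members have bins, 79 of 35669 were called (0.221%). The step between distances was far larger than the gap between members and other windows at one distance. The gap was not the same under other settings. With the WGA input as reference, member bins were called more often than the others from 250 to 500 kb (2.79% against 2.46%) and from 500 to 1000 kb (1.44% against 1.28%). With H3K4me3 regions of at least 10 tags, they were also called more often in both of these classes (0.480% against 0.462% and 0.370% against 0.0403%). Member bins also lay farther out within each class (a median of 188 kb against 160 kb from 100 to 250 kb) and had fewer input tags (42.8 against 54.2 per bin there), whose part was not tested.

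**Figure D3:**
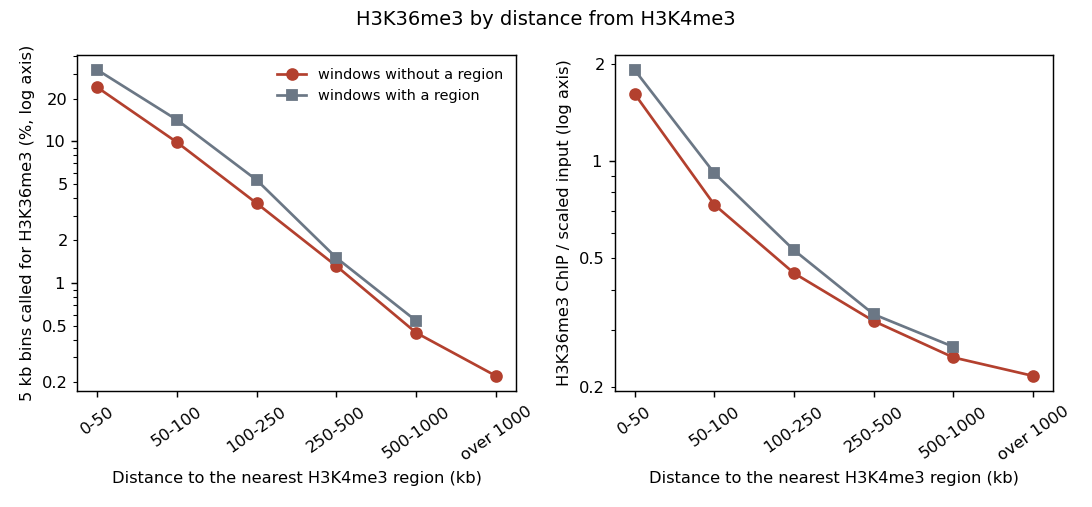
Bins of 5 kb by distance to the nearest H3K4me3 region, in windows without a region (circles) and with a region (squares). The left panel gives the share called for H3K36me3 and the right panel the pooled ratio of H3K36me3 ChIP to scaled input, both on log axes, and both lines fall together from 24.1% and 32.0% called within 50 kb to 0.446% and 0.542% from 500 to 1000 kb.

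The longest run was 11 Mb of chromosome 15 (14000001 to 25000000). In its 11 windows the H3K4me3 ChIP had 1997 to 2531 tags, the WGA input 453 to 618, the H3K36me3 ChIP 280 to 417 and the unamplified input 3127 to 4078. The pooled H3K36me3 ratio was 0.208 (0.201 to 0.215), with windows from 0.169 to 0.259, and 1 of 1868 tested bins was called. The windows on either side stood at 0.557, with 1 H3K4me3 region, and 1.51, with 3. Within the run the ratio was highest in the fifth window (417 ChIP and 3560 input tags) and lowest in the second (290 and 3778). All 11 windows nevertheless lay below both neighbours.

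On chromosome 1 a run of 7 windows (100000001 to 107000000) had a ratio of 0.195 (0.187 to 0.204) and a run of 6 (114000001 to 120000000) had 0.143 (0.135 to 0.151). None of their 1203 and 1002 tested bins was called. A run of 5 on chromosome 2 (85000001 to 90000000) had the lowest ratio of these runs, 0.134 (0.125 to 0.142). Its 5 windows had 149 to 226 H3K36me3 ChIP tags each against 2858 to 3775 input tags, and its neighbours held 12 and 7 H3K4me3 regions at ratios of 1.5 and 1.86. It was the only one of the 5 longest runs with a ratio over 1 on both sides. The run of 5 on chromosome 6 (101000001 to 106000000) was uneven, with windows from 0.142 to 0.407 and a pooled ratio of 0.271 (0.260 to 0.281). It lay beside windows with ratios of 0.510 and 0.314. The intervals of the runs on chromosomes 15 and 1 (7 windows) met, while those of the run on chromosome 6 and of the lower pair did not meet them. These intervals cover counting error and not the spread between windows of a run, so they do not rank the runs.

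**Figure D4:**
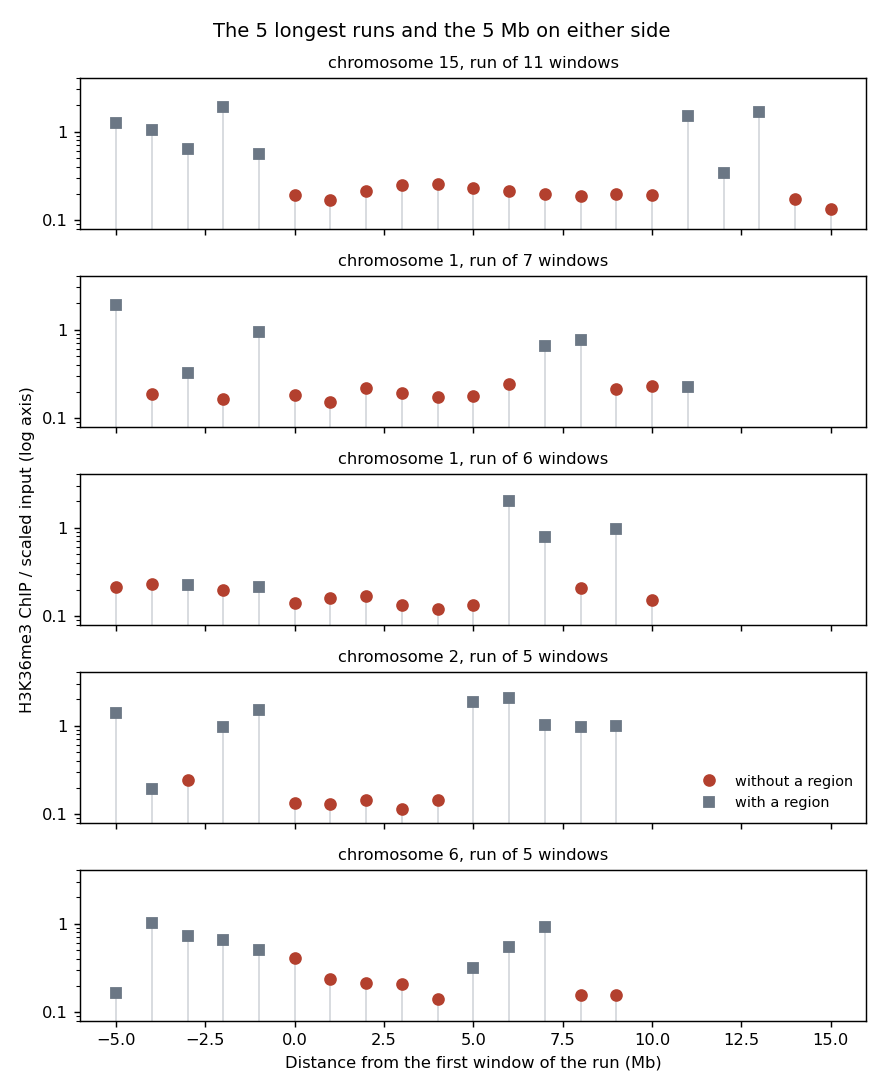
Each panel is 1 of the 5 longest runs of adjacent windows without an H3K4me3 region (circles), with up to 5 windows on either side, by distance from the first window of the run. The vertical log axis is the ratio of H3K36me3 ChIP to scaled input, which stays between 0.113 and 0.407 in the runs and is at least 1.5 in a window next to the runs on chromosomes 15 and 2 and the run of 6 on chromosome 1.

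Members deeper inside a run had much the same median H3K36me3 level as those at its edge. The 463 members next to a window with a region had a median ratio of 0.203 (interquartile range 0.173 to 0.272), the 74 members 2 windows away had 0.202 (0.171 to 0.230) and the 16 members 3 or more windows away had 0.205 (0.173 to 0.222). The medians were close, and the upper part of the distribution was where the groups parted. A called bin was present in 78% of all kept windows, in 102 of the 463 members at an edge (22.0%), in 3 of the 74 (4.05%) and in 2 of the 16 (12.5%). The share was thus not lower at each step inward. The 3 windows, on chromosomes 2, 8 and 12, were poorly covered. They had an input tag in 549, 247 and 553 of their 1 kb bins, against a median of 863 in members. The median input depths of the groups were 4201, 3444 and 3522 tags from the edge inward, and the part of depth in this difference was not tested. Windows with 1 region had a median of 0.454 where neither neighbour was a member (245 windows), 0.443 where 1 was (135) and 0.325 where both were (39).

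H3K36me3 regions were nonetheless present in part of the members. Merged over gaps of at most 1 bin, called bins formed 261 regions with their midpoint in a member, in 106 windows. They covered 4350 kb. The number depended on the settings, with 2391 regions when the input was scaled on background bins and 50 in the fewer members left by an H3K4me3 minimum of 10 tags. Of these regions 145 were a single bin of 5 kb, 51 measured 10 to 15 kb and 65 measured 20 kb or more, up to 165 kb. The median width was 5 kb (interquartile range 5 to 15), against 15 kb (5 to 35) in the other windows. The median ratio was 2.69 in members and 3.35 elsewhere. Among regions of 5 kb the medians were 2.39 and 2.35, and among regions of 20 kb or more 3.28 and 4.24. When wide regions were limited to those over 25 kb from any H3K4me3 region, the medians were 3.07 for 56 regions in members and 2.97 for 1152 regions elsewhere, with interquartile ranges that overlapped (2.44 to 3.97 and 2.34 to 3.99). Wide regions of members thus had a lower median than all wide regions of other windows, but not than the remote ones, although they lay farther out than these as well (medians of 310.5 kb and 68 kb). Called bins were also unevenly spread, since the 27 members with at least 10 of them held 512 of the 801 (63.9%). A single called bin was found in 28 members.

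Most of these H3K36me3 regions lay far from any H3K4me3 region. Among the H3K36me3 regions of all kept windows 43.6% lay within 5 kb of an H3K4me3 region, and 7 of the 261 in members did, next to one with its midpoint in the adjoining window. The median distance was 379 kb in members and 9 kb elsewhere, 225 of the 261 were more than 100 kb away and 33 more than 1000 kb. These distances follow in part from the rule, which keeps H3K4me3 regions out of the window.

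The 8 H3K36me3 regions of members with the most tags over scaled input measured 45 to 165 kb. The leading one, on chromosome 7 (55940001 to 56105000), was the widest at 165 kb, with 3270 ChIP tags, 1446 input tags and a ratio of 4.99 (4.69 to 5.32). It lay 21 kb from an H3K4me3 region. A region of 45 kb on chromosome 5 (118980001 to 119025000) had the highest ratio of the 8, 5.85 (5.47 to 6.26), from 3068 tags against 1158. It lay 157 kb from an H3K4me3 region, and across it the H3K4me3 ChIP had 115 tags and the WGA input 75, which gave 0.507. The region of 100 kb on chromosome 4 (105840001 to 105940000) stood at 5.57 (5.20 to 5.98), 119 kb from H3K4me3. Among wide regions of the other windows the interquartile range was 3.11 to 5.54, so these ratios lay in its upper part or above it.

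The region of chromosome 1 (91420001 to 91545000, 125 kb) was the most distant of the 8, at 490 kb, with a ratio of 2.62 (2.49 to 2.76). A region of 70 kb on chromosome 14 (22965001 to 23035000) lay 284 kb away at 3.36 (3.15 to 3.58). The other 3 touched an H3K4me3 region that belonged to the next window. On chromosome 16 the region from 97945001 to 98005000 stood at 5.35 (4.98 to 5.75). That of chromosome 12, from 26890001 to 27000000, stood at 3.46 (3.25 to 3.68), and that of chromosome 11, from 23980001 to 24075000, at 3.38 (3.16 to 3.60). Their best H3K4me3 bins within 5 kb of an end had 35, 50 and 121 tags, while the other 5 regions had at most 8. Since the other 5 lay at least 21 kb from an H3K4me3 region, this split largely follows from the distances of the 8 regions. Some lay partly outside members, with 60 of 165 kb on chromosome 7, 20 of 45 kb on chromosome 5, 35 of 70 kb on chromosome 14, 20 of 95 kb on chromosome 11 and 5 of 60 kb on chromosome 16 in the adjoining window.

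Wide H3K36me3 regions of members that lay far from H3K4me3 showed no H3K4me3 peak over the input at their ends. Windows and regions were both chosen to lack H3K4me3 nearby, so this absence is no finding. Members held 65 regions of 20 kb or more in all. In 12 of them (18.5%) an H3K4me3 bin of at least 10 tags at 4 times input lay within 5 kb of an end. The share over all kept windows was 56.7%. Of the 65 regions, 56 lay over 25 kb from any H3K4me3 region. Their H3K4me3 ratio was 0.871 (0.793 to 0.956) over the 5 kb outside their ends and 0.757 (0.691 to 0.829) over the 5 kb inside, and these intervals met. Single steps of 1 kb ran from 1.05 (0.838 to 1.32) in the third kb outside to 0.659 (0.542 to 0.803) in the second kb inside. Their intervals did not meet, but both steps were picked as the extremes of the profile, so this is no finding. H3K36me3 itself went from 0.677 (0.609 to 0.751) in the eighth kb outside the same ends to 3.58 (3.36 to 3.82) in the fourth kb inside. The ends were set by the H3K36me3 calls, in members as in other windows. A rise of H3K36me3 there therefore follows from the calling and is no finding.

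A similar H3K4me3 profile was found outside members among remote regions. The 1152 wide regions of other windows that lay over 25 kb from H3K4me3 had an H3K4me3 ratio of 0.880 (0.864 to 0.898) over the 5 kb outside and 0.788 (0.773 to 0.803) over the 5 kb inside. The intervals of this larger group did not meet, and the ratio was lower inside in both groups. Their H3K36me3 ratio went from 0.709 (0.693 to 0.726) in the eighth kb outside to 3.55 (3.50 to 3.60) in the fourth kb inside. All 4 of these intervals met those of the members. In the fifth kb inside, H3K36me3 was lower in members, at 3.19 (2.99 to 3.40) against 3.65 (3.60 to 3.70). It was also lower in the seventh, eighth and ninth kb, with intervals that did not meet. In the eighth kb the values were 2.83 (2.64 to 3.04) and 3.26 (3.22 to 3.31). In the other steps inside the intervals met. Outside, members were lower in each step from the fifteenth to the nineteenth kb, with intervals that did not meet. In the fifteenth kb the values were 0.957 (0.870 to 1.05) and 1.11 (1.09 to 1.14). They were 0.913 (0.826 to 1.01) and 1.26 (1.24 to 1.29) in the eighteenth, and 1.03 (0.934 to 1.13) and 1.27 (1.25 to 1.29) in the nineteenth. In the thirteenth kb members were higher, at 1.17 (1.06 to 1.28) against 1.03 (1.01 to 1.05). The intervals of the other steps outside met. All these intervals cover counting error of pooled tags and not the spread between regions. The gaps between them therefore describe these tags, and a difference between the groups of regions was not tested. Taking all 5019 wide regions of other windows, near ones included, the H3K4me3 ratio in the second kb outside was 2.08 (2.04 to 2.12). An H3K4me3 bin of at least 10 tags at 4 times input lay within 5 kb of an end in 6 of the 56 member regions, against 10.8% of all wide regions over 25 kb from H3K4me3 and 56.7% of all wide regions. Both remote groups were chosen to lie away from H3K4me3, so their low values against all wide regions are no finding. The limit of 25 kb was set after the values had been seen, and the H3K4me3 values of these groups are a description.

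**Figure D5:**
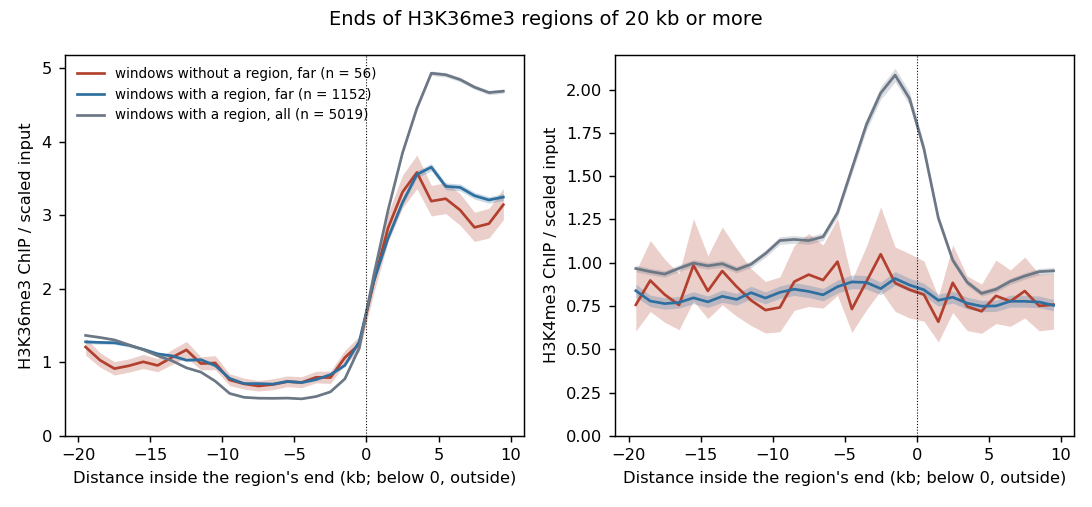
Pooled ratios in steps of 1 kb around both ends of H3K36me3 regions of 20 kb or more, with distances below 0 outside the region and bands for 95% counting intervals; "far" means over 25 kb from any H3K4me3 region. H3K36me3 (left) climbs at the ends in all groups, which follows from how the ends were called. H3K4me3 (right) peaks at 2.08 for all 5019 regions of windows with a region and runs between 0.659 and 1.05 for the 56 regions of windows without one.

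Bins under the rule's tag minimum went with H3K36me3 to a small degree. An H3K4me3 bin of at least 10 tags at 4 times input was present in 405 of the 553 members, against 93.8% of all kept windows, a count the rule itself shapes. The 148 members without such a bin had a median H3K36me3 ratio of 0.197, those with 1 (195 members) 0.200, those with 2 (112) 0.208 and those with 3 or more (98) 0.228. A called H3K36me3 bin was present in 14.9%, 16.9%, 16.1% and 34.7% of them, and in 107 members in all. The last group also had the deepest input, a median of 4471 tags against 3600 in the first, and the part of depth was not tested.

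The 10 members with the highest H3K36me3 ratio fell into well-covered and poorly covered windows. The highest values belonged to chromosome 12, at 20000001 to 21000000 (2353 ChIP tags against 2916 input tags, ratio 1.78, 1.69 to 1.88) and at 18000001 to 19000000 (1486 against 2416, ratio 1.36, 1.27 to 1.45). Only 553 and 532 of their 1 kb bins had an input tag, against a median of 863 in members, and their WGA input had 73 and 82 tags. The window between them (19000001 to 20000000) had a WGA input of 62 tags and a ratio of 0.558 (0.506 to 0.614). Set against the WGA input, the outer windows stood at 7.74 and 4.35, so they were high with either input. Their totals of both inputs lay below the lower quartiles of members (3464 unamplified and 556 WGA tags), that of the WGA input by far the most.

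The window of chromosome 1 at 91000001 to 92000000 was the highest of the well-covered members and the deepest member of all. It had 8944 H3K36me3 ChIP tags and 19141 input tags, which gave a ratio of 1.03 (1.01 to 1.06), and 45 of its 199 tested bins were called, more than in any other member. Its H3K4me3 ChIP had 2986 tags against 1526 WGA input tags. Next came chromosome 16 at 89000001 to 90000000 (4942 against 11033 tags, ratio 0.989, 0.956 to 1.02), chromosome 7 at 56000001 to 57000000 (2665 against 6226, 0.945, 0.903 to 0.989) and chromosome 14 at 98000001 to 99000000 (3154 against 8115, 0.858, 0.823 to 0.894). They had 28, 20 and 27 called bins. The intervals of the windows on chromosomes 1 and 16 met, as did those of chromosomes 16 and 7.

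The other 4 of the 10 stood between 0.754 and 0.795. They lay on chromosome 7 (145000001 to 146000000 at 0.795 and 134000001 to 135000000 at 0.784), chromosome 4 (105000001 to 106000000 at 0.760) and chromosome 18 (57000001 to 58000000 at 0.754), and their intervals met. The first of them is the last, partial window of its chromosome, with 135 covered kb and 27 tested bins, 5 of them called. The other windows had 20 to 27 called bins each.

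The 5 members with the lowest H3K36me3 ratio lay in 3 places. The lowest was chromosome 17 at 38000001 to 39000000, with 96 H3K36me3 ChIP tags, 3284 input tags and a ratio of 0.0645 (0.0521 to 0.0791). Adjoining windows of chromosome 12 had 125 against 3987 tags (114000001 to 115000000, ratio 0.0692, 0.0575 to 0.0827) and 113 against 3361 (115000001 to 116000000, ratio 0.0742, 0.0610 to 0.0896). On chromosome 6, the window at 130000001 to 131000000 had 72 against 2176 (0.0731, 0.0569 to 0.0924) and that at 132000001 to 133000000 had 85 against 2519 (0.0745, 0.0593 to 0.0925). All 5 intervals overlapped, and none of the 5 had a called bin. They lay well under the lower quartile of members, 0.173, and 13 of the 446 members without a called bin had a ratio under 0.1. Among those 446 members the variance was 37.2 times what counting error gives, and 26.0 times without the window of chromosome 17 at 39000001 to 40000000, described next. Members thus differed among themselves beyond counting error even where nothing was called.

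One member owed its level to a few bins. The window of chromosome 17 at 39000001 to 40000000 had a ratio of 0.747 with no called bin, and 6 bins of 1 kb (39451001 to 39457000) held 73.4% of its unamplified input tags, 7613 of 10371, and 3360 of its 3507 H3K36me3 ChIP tags. Without those bins its ratio was 0.118 (0.0990 to 0.139), and it moved from the upper tail of members to below their lower quartile. The other member with at least 5% of its input in a single bin, on chromosome 8 (20000001 to 21000000), changed from 0.474 to 0.469.

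The inputs themselves differed over members. The WGA input, scaled to the unamplified one, stood at a median of 1.43 times it in members (interquartile range 1.28 to 1.54), 1.27 times in windows with 1 region (1.07 to 1.41), 1.05 times in windows with 2 to 4 and 0.886 times in windows with 5 or more (0.772 to 0.992). The WGA input thus lost less depth in windows without H3K4me3 regions than the unamplified input did. Across members the inputs still ranked alike (Spearman rho 0.920 over 553 windows that share their mappable length). The lowest values, chosen after they were seen, were 0.230, 0.275 and 0.312 in the 3 windows of chromosome 12 from 18000001 to 21000000, 0.350 in the chromosome 17 window with the 6 high bins and 0.374 on chromosome 2 (177000001 to 178000000). Against the WGA input, the pooled H3K36me3 ratio of members was 0.217 and their median 0.139, against a median of 0.877 in the other windows. The input chosen moved the level and left members below the rest.

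The members with the deepest inputs were mixed, since 19 of the 46 with at least 10000 unamplified input tags had no called bin. At that depth 5 of 86 windows with 1 region lacked one. All 369 windows with 2 to 4 regions and all 483 with 5 or more had one. With 18100 unamplified input tags, the window of chromosome 8 at 90000001 to 91000000 had 5651 H3K36me3 ChIP tags, a ratio of 0.689 (0.669 to 0.710) and 19 called bins. Chromosome 5 at 119000001 to 120000000 had 17830 unamplified and 1606 WGA input tags and a ratio of 0.477 (0.461 to 0.494). The deepest WGA inputs were 1618 tags on chromosome 17 (48000001 to 49000000, H3K36me3 ratio 0.323, 0.309 to 0.337) and 1544 on chromosome 15 (87000001 to 88000000, ratio 0.351, 0.337 to 0.366). These 4 had at least 5 called bins each. By contrast, the windows of chromosome 4 at 127000001 to 128000000 (16946 unamplified input tags, ratio 0.252) and of chromosome 2 at 178000001 to 179000000 (16345 tags, ratio 0.188), chosen after their values were seen, had none.

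The H3K4me3 ChIP itself, which chose the members, had a median ratio to scaled WGA input of 1.25 in members, 1.10 in windows with 1 region and 0.958 in windows with 5 or more. These values are a description of tags spread over whole windows, not of a mark.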

How the data were processed

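The authors deposited 1 list of placed tags per library, with chromosome, position (unit: other, in bp of mm8, per the submitters' processing notes) and strand sign. The aligner is not given in the sources used here. Per the labels, the H3K4me3 libraries were amplified and the H3K36me3 libraries were not. From the lists, 1 tag per position and sign was kept, which removed 27.5% of WGA input tags. Tags were shifted by 75 bp and counted. H3K4me3 input was scaled by 3.027, the ratio of library totals. The binomial test used all 466177 tested bins of chromosomes 1 to 19, X and Y, calling 53157. It was also run on simulated independent counts with a single input scale. Those counts lack the spread beyond counting error found here, so the simulation does not bear on calls under that spread or another scale. Windows left out for low input numbered 97. Members, classes and regions were chosen with earlier results of these data known, and named windows by rank of ratio, depth, run length or tags over input. Python 3.11.15, NumPy 2.4.6 and SciPy 1.17.1 were used. Gene annotation and sequence were not used here, since no table in mm8 was at hand. Alternatives changed 1 choice at a time, except windows of 2 Mb, whose input minimum was 4000.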

Additional observations from a re-analysis of the deposited data

How the results depend on the processing

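In all 16 alternatives the median H3K36me3 ratio of members lay below that of other windows and member bins were called less often than all bins. No paired analysis was possible because each group held 1 library. The values below are in the order members, pooled ratio, percent of bins called, members with no called bin, H3K36me3 regions and longest run (553, 0.282, 0.834%, 446, 261 and 11 as reported), left out where a count stayed within 1.5 times or another value within its counting interval. An H3K4me3 minimum of 10 tags gave 149, 0.250, 0.726%, 126, 50 and 5, and one of 30 tags gave a ratio of 0.326, 1.31% and 465 regions. A fold of 2 gave 0.271 and 0.752%, and a fold of 8 gave 0.325, 1.26% and 435 regions. The unamplified input for H3K4me3 gave 0.355, 1.61% and 546 regions, WGA repeats kept gave 0.284, and the binomial test for H3K4me3 gave 0.292 and 0.937%. Windows moved by 0.5 Mb gave 0.269 and 0.665%. Windows of 2 Mb gave 109, 0.233, 0.320%, 90, 41 and a run of 5 such windows. A window minimum of 5000 input tags gave 164 members, 0.342, 1.86%, 103 with no called bin and a run of 3. Background scaling of the H3K36me3 input gave 1.17, 5.03%, 49 and 2391 regions, the WGA input gave 0.217 and 2.69%, a bin fold of 2 gave 0.678%, and no tag minimum gave 0.742%. For windows and tag minimums the alternatives test fewer or other windows by construction; otherwise the cause was not tested. A window minimum of 1000 and no tag shift left all values within their limits. Added after seeing the data, the comparison by distance had members lower in 5 of 5 classes as reported and with background scaling, and in 3 with the WGA input or a minimum of 10 tags. The WGA input's 2513019 tags limit what H3K4me3 can show in members.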
